A study of Mus musculus with 6 samples.

Results

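The transcripts described here encode 36 proteins that drive or build mitosis: cyclins and the enzymes that activate the mitotic cyclin-dependent kinase, other mitotic kinases, spindle checkpoint and anaphase-promoting complex factors, kinetochore and centromere proteins, kinesins, spindle assembly factors and cytokinesis factors. The list also holds the proliferation marker Mki67, the topoisomerase gene Top2a and the transcription factor gene Foxm1. Members were found by symbol among the 27067 Ensembl mouse gene identifiers of the deposited count table, and each of the 36 matched 1 row. Polyadenylated RNA had been sequenced from the mouse melanoma line B16F10, which makes pigment and grows continuously in culture. There were 3 libraries of cells given a Polianthes tuberosa (tuberose) extract and 3 libraries of control cells, named blank in the table. All come from the same line, and the labels name no genetic alteration. Neither dose nor time of treatment, solvent or number of separate cultures is given, so p-values measure only the spread between these libraries, which may be technical. The comparison asks how each mitosis gene differed between treated and control cells.

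Entry into mitosis is driven by Cdk1 bound to cyclin A or cyclin B, helped by the kinases Plk1, Aurora A and Aurora B and by Cdc25 phosphatases. Kinesins and microtubule-binding proteins then build the spindle, kinetochores attach chromosomes to it, and the spindle checkpoint holds back the anaphase-promoting complex until attachment is complete. In cycling cells most of these genes are transcribed late in the cell cycle. A promoter element called the CHR (cell cycle genes homology region), bound by the MuvB complex together with B-Myb or Foxm1, and CCAAT boxes bound by NF-Y are known for this timing. In bulk RNA, fewer cells in the last phases of the cycle and less of each transcript per cell cannot be told apart.

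The promoters of these genes were read first, since the members are known to share control elements. RefSeq promoter windows of 300 bases on GRCm38.p6 (250 bases before the annotated start and 50 from it) were found for 30 members in 32 windows. Ccna2, Cdc25c, Aurkb, Kif20a, Tpx2 and Foxm1 had no entry. The CHR was searched as TTTGAA on both strands and as TTCGAA, a form that reads the same on both strands. Either form stood in 24 of the 30 members' promoters (80.0%), and in 26 of their 32 windows, against 19.2% of all 32851 windows and 13.9% of the 13159 windows of tested genes. Within 50 bases of the start, 22 of 30 members (73.3%) had a match, against 5.31% of all windows and 4.32% of 10260 tested genes outside the list. CCAAT, on either strand, stood in 25 of 32 member windows (78.1%), against 37.4% of all windows and 37.8% of those of tested genes. No CHR match of a member overlapped a CCAAT match (0 overlaps). TTCCCGC or TTGGCGC, a pair of E2F site forms, stood in 5 of 32 member windows (15.6%), against 6.81% of all windows and 11.8% of those of tested genes. Counted by gene this was 13.3% of the members and 14.1% of tested genes, so the E2F forms were about as frequent in the members as in tested genes. In the windows of Ccnb1 and Ect2 the E2F match shared letters with a CCAAT match. Such matches describe letters and do not show binding. Stretches from 120 bases before the start base to 50 from it are shown for 8 members, 5′ to 3′ in the direction of transcription, with CHR and CCAAT letters of either strand in capitals. The first 6 genes fell in treated cells by amounts from the largest to a small one, and the last 2, Cenpf and Anln, did not pass the test. Both have a CHR match within 50 bases of the start, and the Anln window has no CCAAT match.
Kif22 (GRCm38.p6, chr7:127042371-127042540, minus strand): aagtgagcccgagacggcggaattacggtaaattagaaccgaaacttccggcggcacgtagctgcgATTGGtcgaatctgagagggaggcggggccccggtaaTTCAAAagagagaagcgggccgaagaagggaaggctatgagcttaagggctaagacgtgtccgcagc
Plk1 (GRCm38.p6, chr7:122159315-122159484, plus strand): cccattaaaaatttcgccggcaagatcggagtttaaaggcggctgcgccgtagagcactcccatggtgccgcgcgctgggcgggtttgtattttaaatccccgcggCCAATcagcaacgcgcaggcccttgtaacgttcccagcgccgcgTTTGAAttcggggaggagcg
Ube2c (GRCm38.p6, chr2:164769809-164769978, plus strand): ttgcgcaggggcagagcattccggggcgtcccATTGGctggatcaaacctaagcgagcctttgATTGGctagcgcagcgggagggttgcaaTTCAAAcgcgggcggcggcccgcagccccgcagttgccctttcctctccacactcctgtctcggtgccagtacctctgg
Racgap1 (GRCm38.p6, chr15:99651607-99651776, minus strand): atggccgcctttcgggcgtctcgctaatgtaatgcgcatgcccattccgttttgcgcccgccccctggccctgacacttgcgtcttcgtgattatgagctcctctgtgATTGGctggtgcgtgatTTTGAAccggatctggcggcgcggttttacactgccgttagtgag
Cdk1 (GRCm38.p6, chr10:69352863-69353032, minus strand): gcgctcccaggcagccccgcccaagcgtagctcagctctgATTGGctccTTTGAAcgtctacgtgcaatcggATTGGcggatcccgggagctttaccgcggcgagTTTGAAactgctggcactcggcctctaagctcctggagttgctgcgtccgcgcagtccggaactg
Ccnb2 (GRCm38.p6, chr9:70421505-70421674, minus strand): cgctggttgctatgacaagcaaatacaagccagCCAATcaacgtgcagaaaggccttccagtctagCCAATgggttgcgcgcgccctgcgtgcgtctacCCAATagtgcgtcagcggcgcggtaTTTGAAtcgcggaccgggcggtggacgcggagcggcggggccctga
Cenpf (GRCm38.p6, chr1:189688037-189688206, minus strand): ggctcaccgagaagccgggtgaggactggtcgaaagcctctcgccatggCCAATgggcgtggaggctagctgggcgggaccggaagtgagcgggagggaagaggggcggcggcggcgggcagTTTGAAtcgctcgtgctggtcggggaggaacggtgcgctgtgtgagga
Anln (GRCm38.p6, chr9:22389157-22389326, minus strand): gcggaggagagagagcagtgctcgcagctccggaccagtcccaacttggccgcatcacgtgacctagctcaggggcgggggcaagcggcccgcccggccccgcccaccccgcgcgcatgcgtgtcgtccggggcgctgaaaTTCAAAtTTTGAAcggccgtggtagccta

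**Figure D1:**
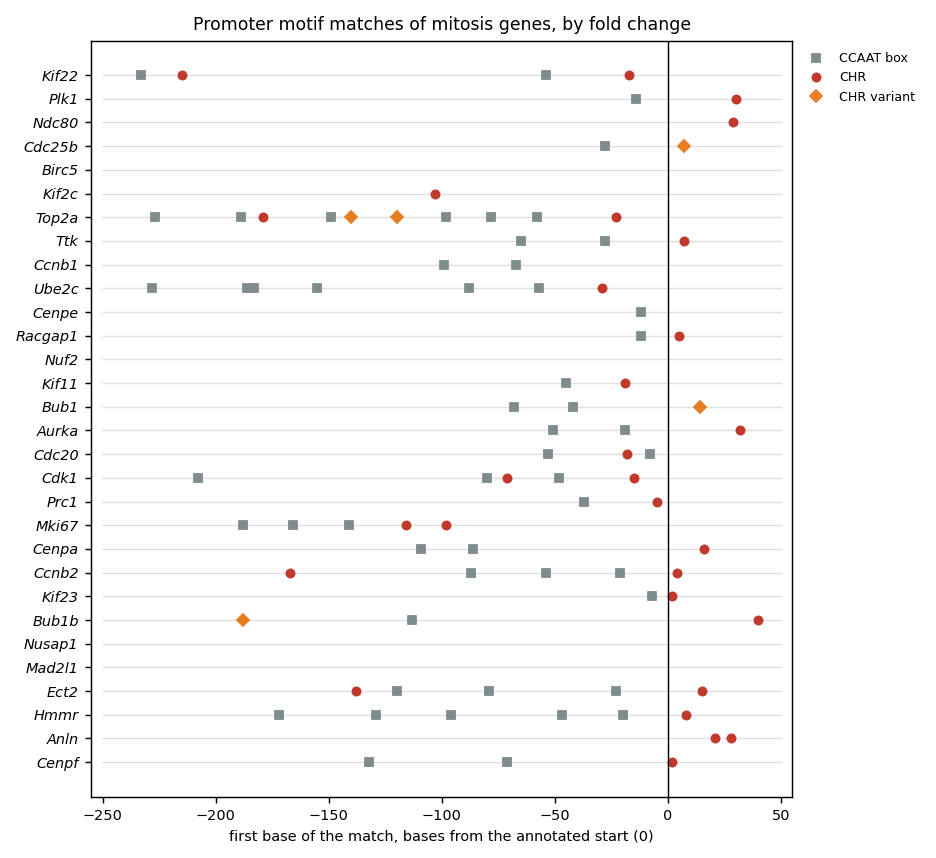
Matches of the CHR (TTTGAA, circles), its variant (diamonds) and the CCAAT box (squares) in the promoter windows of 30 members, 1 row a gene. Rows are ordered from the lowest log2 fold change at the top to the highest at the bottom. The x axis gives the first base of each match in bases from the annotated start; CHR matches gather at the start in 22 of the 30 genes, from Kif22 at the top to Cenpf at the bottom.

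Nearly all mitosis genes were lower in treated cells, each by a modest amount. Of the 36 members 34 fell, 2 did not pass, and 0 rose (edgeR quasi-likelihood test, Benjamini-Hochberg adjusted p under 0.05). At an unadjusted p under 0.05, and in DESeq2, 0 members were higher. The background is high in this comparison: 53.0% of the 15150 tested genes were called, 27.9% as lower and 25.1% as higher. The median log2 fold change, treated over control, was -0.32 over the members, against 0.01 over all tested genes. This median corresponds to 19.8% less transcript, and the members ranged from 33.2% less for Kif22 to 1.31% more for Cenpf. For 32 of the 36 members all treated libraries lay below all control libraries, which held for 30.3% of tested genes; 58.7% had groups that did not overlap in either direction. All 36 members passed the filter on low counts, and their counts ran from 906 to 33881 reads per library.

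Summed over the 36 members, expression was 5131, 5192 and 5321 CPM (counts over library totals scaled by TMM factors) in treated libraries, and 6338, 6357 and 6372 CPM in control libraries. The 2 groups did not overlap, and the sum was 17.9% lower in treated cells. Treated replicate 3 had the highest value of its group for 28 of the 36 members, and treated replicate 1 the lowest for 22. Among controls, replicates 1, 2 and 3 were highest for 8, 13 and 15 members. Leaving out each library in turn gave a median log2 fold change between -0.33 and -0.31 and between 32 and 34 members called lower.

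The log2 fold change varied with the level of expression over all genes. Across 15107 tested genes with an annotated length the log2 fold change had a Pearson correlation of -0.34 with the log2 mean CPM, and the members are abundant. Among 6252 other tested genes in the members' range of mean CPM, from 31.8 to 756, the median log2 fold change was -0.08 and 48.7% were called lower. The members stood at -0.32 and 94.4%. With level-dependent offsets (cyclic loess, which removes the trend of fold change with level), 26 of the 36 members (72.2%) were called lower and 2 higher, against 35.1% and 34.8% of those 6252 genes, and the members' median was -0.21. These offsets moved the log2 fold change of 17 members by over 1.5 times, and library totals that of 12. Scaled by library totals, 28 members were called lower and 2 higher, and the median was -0.24. Over all tested genes, library totals moved the calls from 52.6% lower and 47.4% higher to 37.5% lower and 62.5% higher.

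**Figure D2:**
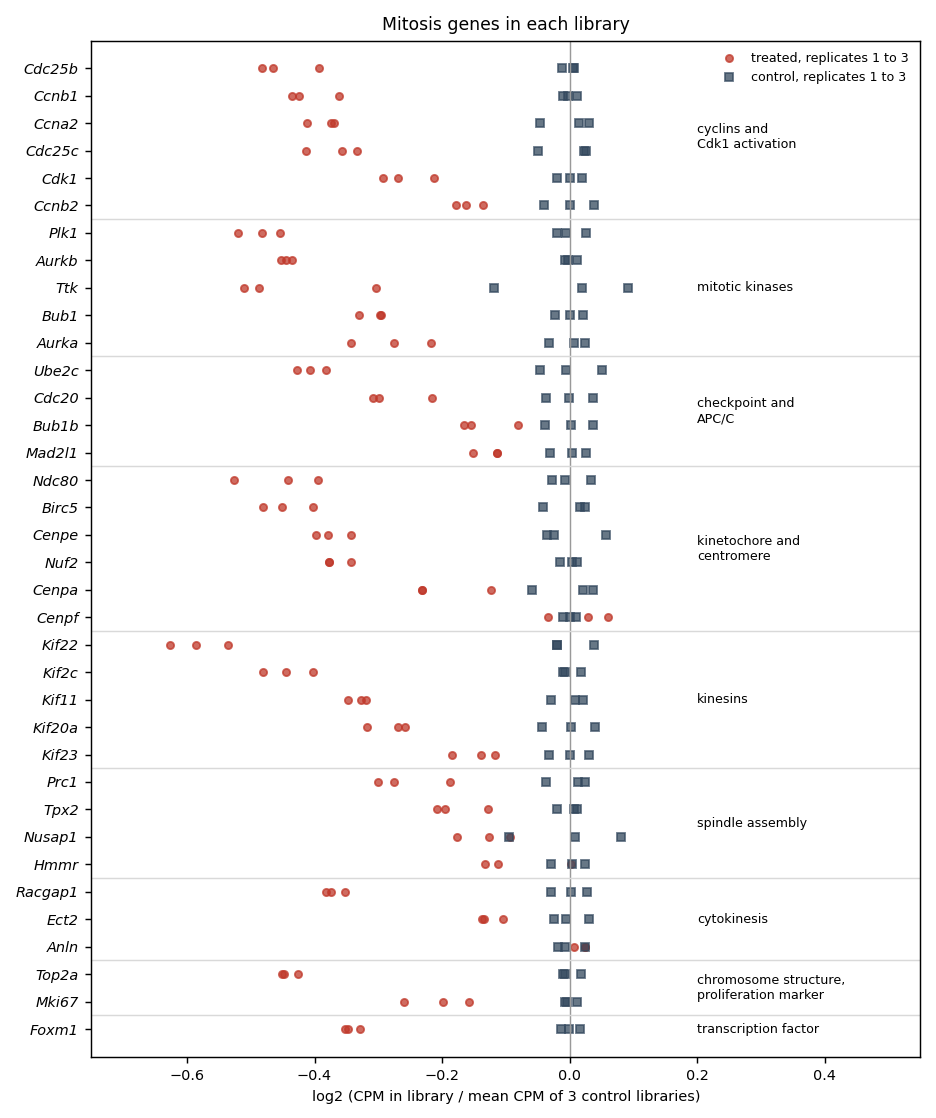
Expression of each member in each library as log2 of its CPM over the mean CPM of the 3 control libraries, grouped by role and ordered by fold change within a role. Red circles are the 3 treated libraries and dark squares the 3 control libraries; the circles lie left of all squares for 32 of 36 genes and overlap them for Nusap1, Hmmr, Anln and Cenpf.

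Cyclins and the activators of Cdk1 all fell, 6 of 6, with log2 fold changes from -0.45 to -0.16. Cdk1 (ENSMUSG00000019942), the kinase that triggers mitosis, measured 186, 189 and 196 CPM in treated libraries, against 224, 227 and 230.5 CPM in control libraries. Its fold change was -0.26 ± 0.03 on the log2 scale (SE, edgeR adjusted p = 2.27e-08). Ccnb1 (ENSMUSG00000041431), which encodes cyclin B1, measured 143, 144 and 151 CPM in treated libraries and 193, 195 and 192 CPM in control libraries. The groups stood far apart next to their own spread (log2 fold change -0.41 ± 0.03, edgeR adjusted p = 1.37e-11). Ccnb2, the second B-type cyclin gene, was lower by less, at 96.9, 97.9 and 99.7 CPM in treated libraries against 113, 107 and 109.6 CPM in control libraries (log2 fold change -0.16 ± 0.03, edgeR adjusted p = 8.82e-05). Ccna2, which encodes the cyclin of S phase and early mitosis, averaged 159 ± 2.52 CPM in treated and 207 ± 5.85 CPM in control libraries (SD, n = 3 each), a log2 fold change of -0.38. The Cdc25 phosphatases remove the inhibitory phosphates of Cdk1. Cdc25b averaged 75.7 ± 2.53 CPM in treated and 103 ± 0.719 CPM in control libraries, and fell by 0.45 on the log2 scale. Cdc25c, the least abundant member per length, averaged 27.7 ± 0.779 CPM in treated and 35.8 ± 1.05 CPM in control libraries and fell by 0.37. With level-dependent offsets the log2 fold change was -0.14 for Cdk1 and -0.07 for Ccnb2 (edgeR adjusted p = 0.0408), and with library totals it was -0.08 for Ccnb2, all still called.

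All 5 mitotic kinases fell, and their summed expression was 23.1% lower in treated cells, the largest drop among the roles with several genes. Plk1 (ENSMUSG00000030867), the Polo-like kinase that acts at centrosomes, kinetochores and the midzone, measured 86.7, 90.8 and 89.0 CPM in treated libraries, against 124, 123 and 127 CPM in control libraries. Its 28.6% fall was the second largest of the list (log2 fold change -0.49 ± 0.03, edgeR adjusted p = 2.79e-12). Aurkb, the kinase of the chromosomal passenger complex, measured 109, 107 and 108 CPM in treated libraries and 148, 146 and 147 CPM in control libraries (log2 fold change -0.44 ± 0.03). Aurka, the related kinase at spindle poles, measured 85.1, 89.2 and 92.9 CPM in treated libraries and 108, 109.7 and 106 CPM in control libraries (log2 fold change -0.28 ± 0.03). The Aurora kinase genes thus both fell, Aurkb by more. Ttk, which encodes the checkpoint kinase Mps1, had the widest spread of the list, with a mean of 32.2 ± 2.59 CPM in treated and 43.5 ± 3.19 CPM in control libraries (SD, n = 3 each). Its groups still did not overlap (log2 fold change -0.43 ± 0.06, edgeR adjusted p = 1.39e-06). Bub1, a checkpoint kinase at kinetochores, averaged 144 ± 1.96 CPM in treated and 178 ± 2.76 CPM in control libraries (SD, n = 3 each) and fell by 0.31, or by 0.20 with level-dependent offsets.

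The spindle checkpoint and anaphase-promoting complex genes fell unequally, 4 of 4, between -0.40 and -0.13. Ube2c, the ubiquitin-conjugating enzyme of the anaphase-promoting complex, measured 81.3, 82.6 and 84.0 CPM in treated libraries and 106, 113 and 109 CPM in control libraries (log2 fold change -0.40 ± 0.03, edgeR adjusted p = 2.51e-10). Cdc20, the activator that the checkpoint holds back, lay between 60.6 and 64.6 CPM in treated and between 73.1 and 76.9 CPM in control libraries (log2 fold change -0.27 ± 0.04). The checkpoint inhibitor genes among the members, Mad2l1 and Bub1b, were nearer to control levels. Bub3, a checkpoint gene outside the members and named after its value was seen, fell by 0.30 on the log2 scale. Mad2l1, which encodes the Cdc20 inhibitor Mad2, averaged 131 ± 1.97 CPM in treated and 143 ± 2.82 CPM in control libraries (log2 fold change -0.13, edgeR adjusted p = 4.21e-04). Bub1b, which encodes BubR1, averaged 131 ± 4.16 CPM in treated and 144 ± 3.74 CPM in control libraries (log2 fold change -0.13, edgeR adjusted p = 5.40e-04). Neither call held with level-dependent offsets, where the edgeR adjusted p was 0.425 for Mad2l1 and 0.343 for Bub1b, or with library totals (0.137 and 0.112).

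Of 6 kinetochore and centromere genes 5 fell and 1, Cenpf, did not pass. Ndc80 (ENSMUSG00000024056), the microtubule-binding core of the outer kinetochore, measured 59.7, 61.7 and 56.4 CPM in treated libraries and 79.6, 80.7 and 83.0 CPM in control libraries (log2 fold change -0.45 ± 0.04, edgeR adjusted p = 6.11e-10). Nuf2, its dimer partner, measured 54.3, 54.3 and 55.6 CPM in treated libraries and 70.7, 71.1 and 69.8 CPM in control libraries (log2 fold change -0.37 ± 0.04). Birc5, which encodes survivin, the passenger complex subunit that docks Aurora B on centromeres, measured 109, 107 and 113 CPM in treated libraries and 151, 152 and 145 CPM in control libraries (log2 fold change -0.44 ± 0.03). In all of these the groups were separate. Cenpe, a kinetochore motor, averaged 139.9 ± 2.66 CPM in treated and 181 ± 6.36 CPM in control libraries and fell by 0.37. Cenpa, the histone H3 variant that marks centromeres, averaged 106 ± 4.69 CPM in treated and 122 ± 4.24 CPM in control libraries and fell by 0.20, or by 0.10 with level-dependent offsets and 0.12 with library totals. Cenpf, a large farnesylated kinetochore protein, went against the rest, with 182, 189.9 and 194 CPM in treated libraries and 185, 186 and 187 CPM in control libraries. Its treated values spanned the control values (log2 fold change 0.02 ± 0.03, edgeR adjusted p = 0.593). The estimate was -0.0053 without treated replicate 3, and it passed as higher when scaled by library totals (0.10, edgeR adjusted p = 0.00412) or by level-dependent offsets (0.13, edgeR adjusted p = 2.76e-04).

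All 5 kinesins fell. Kif22 (ENSMUSG00000030677), the chromokinesin that pushes chromosome arms away from the poles, measured 63.6, 65.4 and 67.7 CPM in treated libraries, against 96.8, 96.9 and 101 CPM in control libraries. This was the largest fall of the list, 33.2% (log2 fold change -0.58 ± 0.03, edgeR adjusted p = 1.43e-12), and 2.96% of tested genes had a lower log2 fold change. Kif2c, a microtubule-depolymerising kinesin at centromeres, measured 57.5, 56.1 and 59.2 CPM in treated libraries and 77.7, 79.2 and 77.8 CPM in control libraries (log2 fold change -0.44 ± 0.04). Kif11, the Eg5 motor that separates the spindle poles, averaged 169 ± 1.64 CPM in treated and 213 ± 3.90 CPM in control libraries and fell by 0.33, or by 0.22 with level-dependent offsets. Kif20a and Kif23, the midzone kinesins of cytokinesis, were lower by less. Kif20a averaged 83.7 ± 1.83 CPM in treated and 102 ± 2.90 CPM in control libraries (log2 fold change -0.28). Kif23 measured 88.2, 91.1 and 92.5 CPM in treated libraries and 102, 100.3 and 98.1 CPM in control libraries (log2 fold change -0.15 ± 0.03, edgeR adjusted p = 3.26e-04). The Kif23 call was lost with level-dependent offsets (edgeR adjusted p = 0.0788) and with library totals (0.0617).

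The 4 spindle assembly genes and 3 cytokinesis genes were closest to control levels, with summed expression 11.1% and 10.7% lower in treated cells. Prc1, which bundles midzone microtubules, averaged 125 ± 5.21 CPM in treated and 149 ± 3.32 CPM in control libraries (log2 fold change -0.25; level-dependent offsets gave -0.15). Tpx2, the activator of Aurora A on the spindle, averaged 211 ± 6.37 CPM in treated and 238 ± 2.76 CPM in control libraries (log2 fold change -0.18, edgeR adjusted p = 5.49e-06); with level-dependent offsets the change was -0.06 and the call was lost (edgeR adjusted p = 0.0670), and with library totals it was -0.10. Nusap1 and Hmmr, both microtubule-associated, had overlapping groups. Nusap1 measured 69.4, 71.9 and 73.5 CPM in treated libraries and 73.5, 79.0 and 82.9 CPM in control libraries (log2 fold change -0.13 ± 0.04, edgeR adjusted p = 0.00844), and its call was lost without control replicate 3 (edgeR adjusted p = 0.0848), with library totals (0.276) and with offsets that depend on level (0.218). Hmmr measured 102, 103 and 112 CPM in treated libraries and 109, 112 and 113 CPM in control libraries, and passed narrowly (log2 fold change -0.08 ± 0.03, edgeR adjusted p = 0.0472). The Hmmr call was lost in 10 of 14 alternatives, among them leaving out treated replicate 1 (edgeR adjusted p = 0.214), treated replicate 2 (0.159), control replicate 2 (0.0961) or control replicate 3 (0.156), and DESeq2 (0.104).

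Among the cytokinesis genes Racgap1 (ENSMUSG00000023015), a GTPase-activating protein that forms the centralspindlin complex with Kif23, measured 211, 212 and 215 CPM in treated libraries and 279.7, 269 and 275 CPM in control libraries (log2 fold change -0.37 ± 0.02, edgeR adjusted p = 1.82e-11). Ect2, the RhoA exchange factor that centralspindlin recruits, averaged 137 ± 1.71 CPM in treated and 149 ± 2.89 CPM in control libraries (log2 fold change -0.12, edgeR adjusted p = 4.25e-04; 0.489 with level-dependent offsets and 0.145 with library totals). Anln, the anillin scaffold of the contractile ring, measured 247, 247 and 244 CPM in treated libraries and 247, 242 and 239.8 CPM in control libraries. Its groups overlapped, and the log2 fold change was 0.02 ± 0.02 (edgeR adjusted p = 0.549). With library totals or level-dependent offsets Anln passed as higher, at 0.10 (edgeR adjusted p = 0.00180) and 0.14 (3.58e-05).

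Top2a (ENSMUSG00000020914), which untangles sister chromatids and had the highest level per length of the list, measured 637, 639 and 648 CPM in treated libraries, against 867, 865 and 881 CPM in control libraries. It had the smallest p of the members (log2 fold change -0.44 ± 0.02, edgeR adjusted p = 4.34e-15). Mki67, whose protein coats mitotic chromosomes and serves as a marker of cycling cells, measured 597, 623 and 641 CPM in treated libraries and 713, 712 and 721 CPM in control libraries (log2 fold change -0.20 ± 0.02, edgeR adjusted p = 5.59e-08). The treated values of Mki67 spread more than its control values. Library totals brought it to -0.13, and level-dependent offsets to -0.05, where the call was lost (edgeR adjusted p = 0.0519). Top2a stood at -0.28 with those offsets. Foxm1, a transcription factor gene whose product activates many of the other members, measured 153, 153 and 155 CPM in treated libraries and 195, 197 and 193 CPM in control libraries (log2 fold change -0.34 ± 0.03, edgeR adjusted p = 8.90e-11).

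On a per-length scale, as TPM (length-normalised transcript levels), the members spanned more than 10-fold. Top2a averaged 256 ± 1.31 TPM in treated and 326 ± 3.50 TPM in control libraries. Ccnb2 followed at 230.5 ± 2.43 TPM in treated and 242 ± 7.23 TPM in control libraries, and Mki67 was close to it at 222 ± 7.15 and 239.8 ± 1.73 TPM, so the control levels of Ccnb2 and Mki67 differed by less than their spread. Ttk and Cdc25c were lowest, Ttk with 23.6 ± 1.78 TPM in treated and 29.8 ± 2.26 TPM in control libraries and Cdc25c with 20.3 ± 0.503 TPM in treated and 24.6 ± 0.770 TPM in control libraries. Level did not order the falls among members: over the 36 genes the log2 fold change had a Pearson correlation of 0.22 with log2 mean CPM and 0.32 with log2 exonic length. These are descriptions across genes that share 6 libraries.

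**Figure D3:**
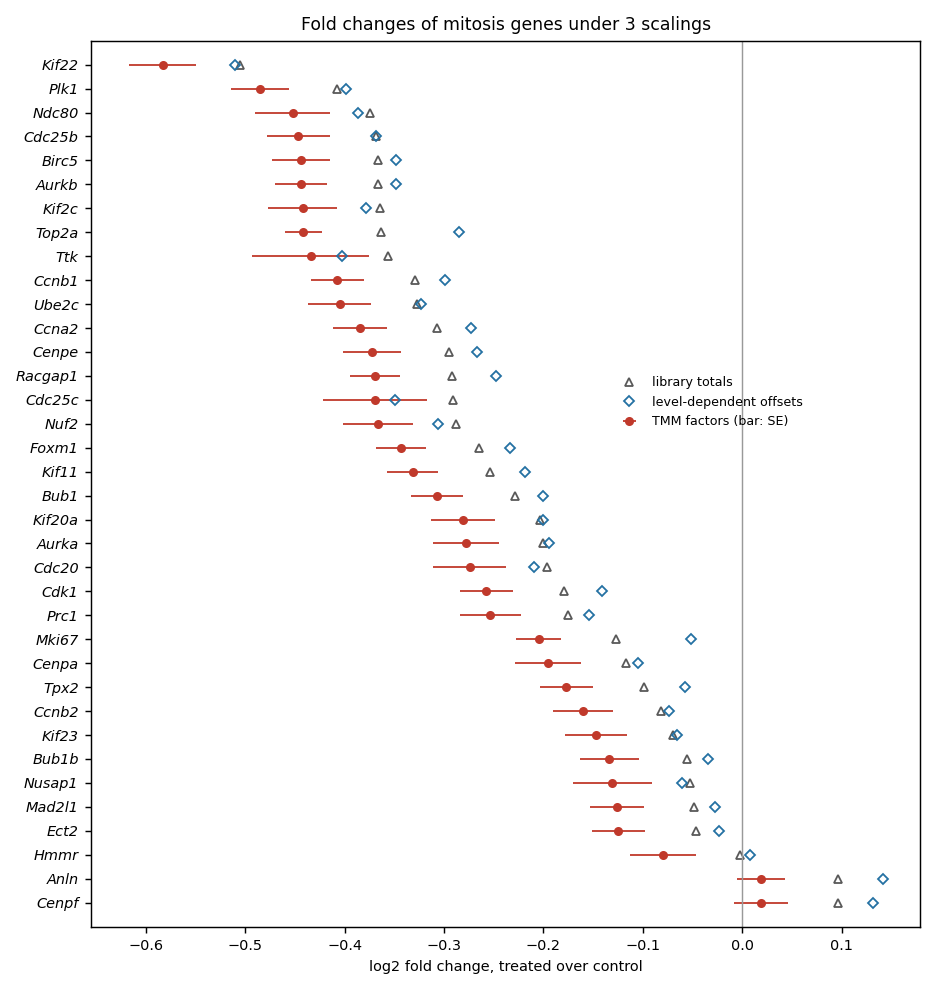
Log2 fold changes, treated over control, of the 36 members, sorted, with TMM factors (filled circles, bars are SE), library totals (triangles) and level-dependent offsets (diamonds). With either alternative nearly all values shift to the right while their order is largely kept; Kif22 stays lowest and Anln and Cenpf highest.

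Because nearly all members moved, their ratios to each other within a library were examined, which a single scaling factor per library cannot alter. Level-dependent offsets can alter them, and the ratios given here are without such offsets. Over the alternative fits 2 ratio results moved by at least the larger SD between replicates, and 86 did not. Those that moved were Kif23 to Racgap1 and Tpx2 to Aurka, with level-dependent offsets. With the same offsets the log2 fold changes of Cdc25b and Cdc25c were close, at -0.37 and -0.35. For 11 pairs of known partners or relatives, listed after earlier results were known, the log2 ratio was compared between treated and control libraries. The groups did not overlap for 9 of the 11, where 72.5% of all 630 pairs of members did not overlap. With 3 libraries against 3 the exact two-sided permutation test cannot go below p = 0.10, which those 9 pairs reached (0.122 adjusted over the 11). Ccnb1 to Ccnb2 was 0.56, 0.56 and 0.60 in treated libraries, against 0.78, 0.87 and 0.81 in control libraries, a difference of -0.25. Plk1 to Cdk1 differed by -0.23, Bub1 to Bub1b by -0.17, Aurkb to Aurka by -0.17, Ccnb1 to Cdk1 by -0.15 and Cdc20 to Mad2l1 by -0.15. Kif23 to Racgap1, the centralspindlin partners, went the other way, at -1.26, -1.22 and -1.22 in treated libraries and -1.45, -1.42 and -1.49 in control libraries, a difference of 0.22. Tpx2 to Aurka differed by 0.10, and Cdc25b to Cdc25c by -0.08. Groups overlapped for the other pairs. Aurkb to Birc5, both of the passenger complex, was -0.01, 0.00 and -0.07 in treated libraries and -0.03, -0.06 and 0.01 in control libraries, a difference of 2.49e-04 (exact permutation p = 1.0). Ndc80 to Nuf2 differed by -0.09 (exact permutation p = 0.3).

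**Figure D4:**
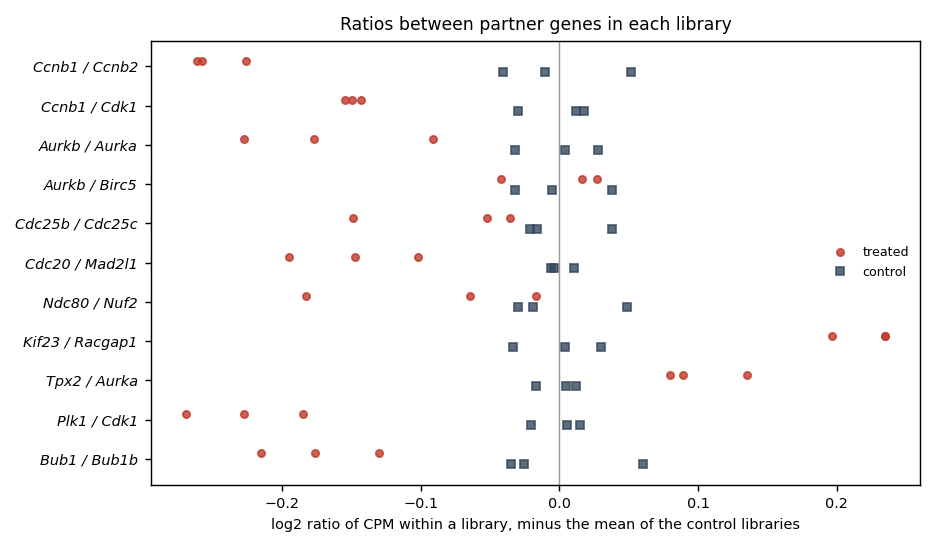
Log2 ratio of CPM between partner genes within each library, with the mean of the control libraries subtracted, for 11 pairs; red circles are treated and dark squares control libraries. Treated libraries lie left of the controls for Ccnb1 over Ccnb2 and Plk1 over Cdk1, right of them for Kif23 over Racgap1, and among them for Aurkb over Birc5.

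Other genes of mitosis, listed from knowledge of the pathway, were lower too, though by less. Of 172 such genes in 11 lists 171 were tested; 104 fell, 13 rose and 54 did not pass, with a median log2 fold change of -0.17. Library totals gave 86 lower and 28 higher, and level-dependent offsets 84 lower and 23 higher. The shares of all tested genes called lower and higher with TMM factors, given above, were 27.9% and 25.1%. With library totals 20.1% of tested genes were lower, and 62.5% of all calls were higher. With level-dependent offsets 25.2% of tested genes were lower and 25.6% higher. The 104 genes called lower with TMM factors were 60.8% of those tested in the lists. Among the 6252 other tested genes in the members' range of mean CPM, 48.7% were lower with TMM factors and 35.1% with level-dependent offsets. No share at matched level was obtained for these lists. The 8 condensin genes, which compact chromosomes, all fell, with Ncapd2 at 383 ± 6.31 CPM in treated and 483 ± 4.64 CPM in control libraries (log2 fold change -0.33); 5 of 8 passed with level-dependent offsets. Of 9 checkpoint and chromosomal passenger genes 7 fell, among them Mad1l1, the kinetochore receptor of Mad2, by 0.55 and the cohesin protector gene Sgo1 by 0.54 on the log2 scale. The passenger scaffold gene Incenp, named after its value was seen, averaged 115 ± 6.06 CPM in treated and 155 ± 1.33 CPM in control libraries, a fall of 0.43 close to that of Aurkb and Birc5. Of 8 other mitotic kinesins 6 fell, with Kifc1, a minus-end-directed motor gene, falling by 0.42.

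Kinetochore genes beyond the members fell more often than they rose, and some did not pass. The shares called lower were 64.7% of the outer and 65.0% of the inner kinetochore list. Over all tested genes the share was 27.9%, and in the members' range of mean CPM 48.7%. Of 17 outer kinetochore and attachment genes 11 fell and 1 rose (4 rose with library totals or level-dependent offsets, and 2 without control replicate 3). The attachment factor gene Ska1 averaged 13.9 ± 0.171 CPM in treated and 23.4 ± 1.37 CPM in control libraries, a log2 fold change of -0.75. Pmf1, of the Mis12 complex, fell by 0.60, whereas Mis12 of the same complex rose by 0.25 on the log2 scale. Of 20 inner kinetochore and CENP-A loading genes 13 fell, and 9 to 12 when each library was left out in turn. Among them Cenpu was lower by 0.52 and Cenpb by 0.27. Of 17 anaphase-promoting complex subunits and regulators 12 fell and 1 rose. Fbxo5, which encodes the complex's inhibitor Emi1, fell by 0.48, the subunit gene Anapc4 fell by 0.36 and the catalytic subunit gene Anapc11 rose by 0.25.

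Regulators of Cdk1 went both ways, 5 of 12 lower and 3 higher. Their share lower, 41.7%, was above the 27.9% of all tested genes. It was below the 48.7% of other tested genes in the members' range of mean CPM, of which 24.2% were higher. Bora, the activator of Aurora A towards Plk1, averaged 20.8 ± 0.0377 CPM in treated and 32.0 ± 1.63 CPM in control libraries, a log2 fold change of -0.62. Lats2, a Hippo pathway kinase gene, averaged 23.2 ± 1.79 CPM in treated and 15.1 ± 0.930 CPM in control libraries (log2 fold change 0.62). Wee1, the kinase that inhibits Cdk1 and named here after its value was seen, rose by 0.28. Of 15 cohesin and separase genes 10 fell and 1 rose, with the separase gene Espl1 falling by 0.43 and the cohesin loader gene Nipbl rising by 0.21. With level-dependent offsets 6 of those 15 fell. Of 34 centrosome, augmin and spindle pole genes 20 fell and 2 rose (1 rose without treated replicate 1), with the gamma-tubulin gene Tubg1 at 111 ± 2.48 CPM in treated and 167 ± 3.22 CPM in control libraries. Its log2 fold change was -0.59. Ndel1, of the dynein pathway, rose by 0.27. Of 10 cytokinesis and abscission genes 5 fell and 1 rose, 3 of them lower with library totals or level-dependent offsets. The 5 of 10 lower were close to the 48.7% in the members' range of mean CPM. The cohesin and separase list, at 66.7% lower, and the centrosome, augmin and spindle pole list, at 58.8%, stood above it. The septin gene Sept9 fell by 0.37, and the gene that rose, Chmp4b of the abscission machinery, had an edgeR adjusted p = 0.0283 that became 0.0512, 0.206, 0.112 and 0.0812 without treated replicates 2 and 3 and control replicates 2 and 3.

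The MuvB, E2F and NF-Y factors are known as regulators of cell cycle promoters. Of 21 tested genes for them 7 fell (33.3%) and 4 rose (19.0%), shares near the 27.9% and 25.1% of all tested genes. The median log2 fold change of these 21 was 0.02, and with library totals 10 rose. Mybl2, which encodes the B-Myb partner of MuvB, measured 42.1, 38.1 and 45.1 CPM in treated libraries and 63.2, 64.5 and 59.8 CPM in control libraries (log2 fold change -0.58 ± 0.05, edgeR adjusted p = 1.01e-09). The fall of Mybl2 was as large as that of Kif22. Rb1, the retinoblastoma gene, averaged 43.4 ± 2.17 CPM in treated and 35.6 ± 1.49 CPM in control libraries and rose by 0.29. The MuvB subunit gene Lin9 fell by 0.39 and the NF-Y subunit gene Nfyc by 0.49 on the log2 scale, while E2f1 stood at -0.03 ± 0.03 (edgeR adjusted p = 0.449); these 3 were named after their values were seen. Lin54 was not analysed here.

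**Figure D5:**
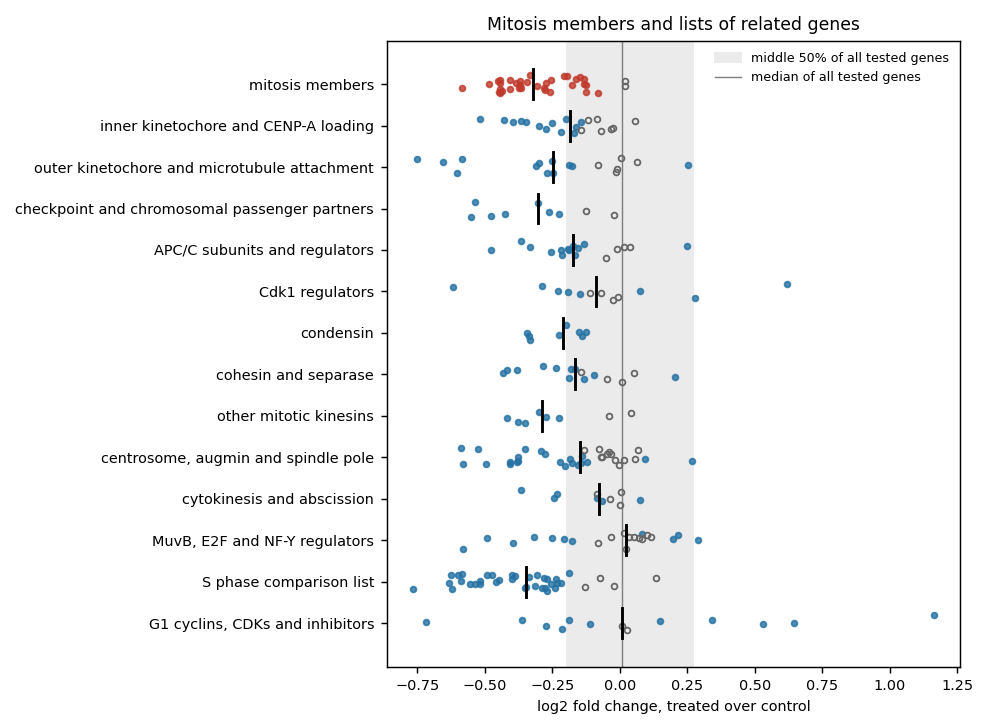
Log2 fold changes, treated over control, of the 36 members (red) and of the genes of 13 related lists (blue where called, open where not), 1 point a gene and a black bar at each list's median. The grey band holds the middle 50% of all 15150 tested genes; the medians of the members and of the S phase list lie farthest left, at -0.32 and -0.35, and those of the G1 and regulator lists lie near 0, at 0.01 and 0.02.

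CHR matches near the start were also counted in genes outside the list. Of 10260 tested genes outside the list with a promoter window, 443 had a match within 50 bases of the start, and 34.8% of these were called lower, against 31.2% of all 10260. With a CCAAT box as well, 79 of 189 genes (41.8%) were called lower. Leaving out the genes of every list named here took out other cell cycle genes too. That share was then 57 of 158 (36.1%), against 30.7% of all such genes. For a match within 50 bases of the start, with or without a CCAAT box, it was 125 of 399 (31.3%). The median log2 fold change of those 399 genes was 0.0026. Among the members, the 24 with a match in the window had a median log2 fold change of -0.28, and the 6 without a match had -0.37. Letters alone do not show a working element, and the part of the CHR in the falls was not tested.

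The members were set beside 2 other cell cycle lists. Of 38 S phase genes, which copy DNA and make its precursors, 34 fell, with a median log2 fold change of -0.35 and 25.5% less summed expression. The members had a median of -0.32 and 17.9% less. Of 13 tested genes for G1 cyclins, their kinases and inhibitors, 6 fell (46.2%) and 5 rose (38.5%), with a median of 0.01. Over all tested genes 27.9% were called lower and 25.1% higher. No test of the difference between lists was made.

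Library totals ran from 31183728 to 33717357 counts in treated and from 31991473 to 40129044 in control libraries, and each pair of libraries of the same group differed by more than sampling noise (chi-square over genes from 3.25 to 3.74 per degree of freedom, where 1 is sampling noise). Correlations of log2 CPM ran from 0.9976 to 0.9980 within groups and from 0.9910 to 0.9919 between them. The 7 pigment cell markers were all abundant, at 13888 to 14704 summed CPM in treated and 16696 to 17302 in control libraries. Markers of other cells were near 0, with sums of 7.87 to 8.43 CPM in treated and 5.28 to 6.53 in control libraries for the 4 of 6 fibroblast genes with a row (not Dcn or Thy1), nearly all of it from Col1a1 and Pdgfra. The 4 of 6 immune genes with a row (not Cd3e or Adgre1) summed to 7.15 to 7.96 CPM in treated and 3.19 to 3.36 in control libraries, nearly all of it Cd68. The 4 of 5 endothelial genes with a row (not Cldn5) summed to at most 0.52 CPM, and the 2 of 5 keratinocyte genes with a row (Krt5 and Krt14) to at most 0.06 CPM, in treated libraries.

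Exons of several members overlap those of another gene on the opposite strand, and whether counting used strand is not stated. The overlap covers 29.3% of the exonic length of Kif20a (with Cdc23, which fell by 0.33), 12.7% of Cdc25c (with Gm3550), 12.5% of Ccna2 (with Exosc9, which fell by 0.26) and 11.1% of Prc1 (with Rccd1, which rose by 0.38 on the log2 scale). It covers 22.8% of Ube2c, where the other gene, Tnnc2, had a total of 0 counts. The part of these overlaps in the differences was not tested.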

How the data were processed

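The deposited table holds raw read counts per Ensembl gene, 1 column per library, which the authors did not normalise. The submitters' processing notes name fastp 0.22.0, featureCounts 2.0.6 and HISAT2 2.2.0, and list the builds mm39 and hg38 with no role for either; the sources used here give no annotation release or strand setting. Columns were matched to samples by library name (0 unmatched). Symbols and exonic lengths came from GENCODE M21 (26531 of 27067 identifiers named); promoter windows came from RefSeq on GRCm38.p6. Genes passing filterByExpr (minimum count 10, total 15; 15150 genes) were fitted in edgeR 4.0.16 (R 4.3.3) with TMM factors and group as the single term, by the two-sided quasi-likelihood F test with Benjamini-Hochberg adjustment over all tested genes; an adjusted p under 0.05 was a call. The fit was tested on simulated counts. The SE is the absolute log2 fold change over the square root of F. The biological coefficient of variation was 3.70%. Alternatives were median-of-ratios factors, library totals, cyclic loess offsets (limma 3.58.1), other filters, DESeq2 1.42.0, a stricter threshold of 0.01, a replicate block and leaving out each library. Lists, members, motifs and tests were chosen with earlier results of these data known. All 36 members are named; from other lists, the called genes of smallest p and largest change (at 5 CPM or more) in each direction, except where stated. The S phase and G1 genes of that rule are given as counts only.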

Additional observations from a re-analysis of the deposited data

How the results depend on the processing

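The members' direction did not depend on the processing as a group, while the smallest falls did. Members called lower numbered 34, and between 26 (level-dependent offsets) and 34 under the alternatives. Members called higher, 0 with TMM factors, were 2 with library totals and 2 with offsets by level, namely Anln and Cenpf in both. The median of the members, -0.32, became -0.24 with library totals and -0.21 with offsets by level, and stayed between -0.33 and -0.31 over the libraries left out in turn. Hmmr turned sign with level-dependent offsets (0.0081). The other mitosis genes called higher, 13, became 28 with library totals, 23 with level-dependent offsets and 8 at an adjusted p under 0.01, and 10 to 13 over the libraries left out. Those called lower went from 104 to 86 with library totals and 84 with offsets by level, and ranged from 99 to 104 over the libraries left out. The cause of these moves was not tested beyond the change of scaling itself. Tested genes called numbered 8032, and 7389 to 7598 over the libraries left out. Replicate numbers are shared by the groups, but same-numbered libraries did not deviate together (correlations of 0.0074, 0.00053 and 0.10 for numbers 1, 2 and 3), and the labels do not say that a number marks a shared culture. With the number as a replicate block 34 members were called lower, their median stayed at -0.32 and the tested genes called numbered 8061, so no call of a member changed. Each member had at least 906 reads in every library. The least covered gene named from the other mitosis lists, Cenpu, had 226 to 265 reads in treated libraries and 316 to 395 in control libraries.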
